A study of Mus musculus with 7 samples.

Results

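The genes described here encode 9 amino acid transporter proteins that cells with a high demand for protein synthesis are known to use: Slc3a2, Slc7a1, Slc7a5, Slc7a6, Slc7a11, Slc1a4, Slc1a5, Slc38a1 and Slc38a2. They were chosen by name, with earlier results of these data known, and each probe set assigned to 1 of these symbols alone was taken. All 9 were on the array, with 12 of the 22626 probe sets that are not controls, among 12393 genes with such a probe set. Of the 9, 6 were bright enough to be tested. Slc7a1, Slc7a11 and Slc1a4 lay below the filter on dim probe sets.

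RNA came from LSK cells of mouse bone marrow, which lack markers of mature lineages, carry Sca-1 and c-Kit and hold the haematopoietic stem cells and early progenitors. The Lkb1 KO group had 4 samples (KO 4 to KO 7) from mice with floxed Lkb1 (Lkb1 L/L) and a tamoxifen-activated Cre at the Rosa26 locus (rosa26CreERT2), and the Lkb1 WT group had 3 samples (WT 5 to WT 7) from mice with floxed Lkb1 and no Cre. Both groups were of the C57BL/Ka-CD45.2:Thy-1.1 strain and received tamoxifen for 5 days, and cells were sorted 1 day later from the bones of the hind leg. Cre from the Rosa26 locus is not limited to blood cells, the age and sex of the mice were not given in these labels, and KO differed from WT by Cre as well as by loss of Lkb1. Each sample was 1 array made from 15000 to 20000 cells and about 10 ng of total RNA, which was amplified. Nothing in the labels states that the samples came from different mice; p-values then reflect only the variation among these 7 arrays, part of which may be technical.

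Amino acids cross the plasma membrane through carriers of several SLC families. The heavy chain CD98, encoded by Slc3a2, pairs with a light chain of the SLC7 family and brings it to the surface; the exchanger LAT1 (Slc7a5), for example, takes up leucine and other large neutral amino acids in return for glutamine, which SLC1 and SLC38 carriers bring in. Leucine and arginine in turn activate mTORC1, the growth kinase complex that LKB1 restrains through AMPK. Several carrier genes are known targets of the transcription factors ATF4 and MYC, and Slc7a11 also of NRF2 (gene Nfe2l2).

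The arrays differed in brightness before normalization. The mean signal without 2% of probe sets at each end was 363 to 428 on the KO arrays and 230.3 to 342 on the WT arrays (exact permutation p = 0.0286, two-sided, the smallest that 4 against 3 samples allow), and WT 7 was the dimmest. The signals were therefore quantile-normalized, and values below are log2(signal + 16) after that step unless said to be deposited signals. Kit, of the sorted gate, had deposited signals above the background level of 13.64 on all 7 arrays. The gate's other marker, Sca-1 (Ly6a), had no probe set of its own symbol. Flt3, Cd34 and Meis1, of stem cells and early progenitors, were also above that level on all 7. The stem cell gene Mecom exceeded it on only 2 or 3 of the 7, depending on the probe set. Cd3e and Cd3g of T cells were at or below that level on all 7, and Cd3d was above it on 4. Of the B-lineage genes, Cd79a was at or below it on all 7, while Cd79b and Vpreb1 were above it on all 7, and none passed the test. The 4 megakaryocyte genes were above it on all 7, and none passed. Their summed normalized signal was 1156 to 1533 on KO arrays, against 1485 to 1792 on WT arrays. All 8 granulocyte markers tested fell in KO, and their summed normalized signal ranged over 8517 to 11997 on KO arrays, against 25628 to 35268 on WT arrays. Of 7 tested genes of the LSK gate and stem cells, 2 fell and none rose (sums of 11150 to 12190 on KO arrays, against 14765 to 16327 on WT arrays). The 2 were Kit itself, at a log2 difference, KO minus WT, of -0.43 (limma adjusted p = 0.0465), and Hlf, at -0.84 (limma adjusted p = 0.0106). Of 6 monocyte genes 2 rose and none fell (5679 to 9406 on KO arrays, against 3518 to 4654 on WT arrays). Sums over 5 erythroid genes were 668 to 813 on KO arrays, against 896 to 1162 on WT arrays. Of these genes Hba-a2 passed as higher. Ermap was bright enough for the test only through its WT samples, so its call as lower is not read here. The 1 stromal gene tested, Col1a2, fell, with sums over 4 stromal genes of 235 to 355 on KO arrays, against 394 to 632 on WT arrays. The brighter probe set of Stk11, the gene of Lkb1, measured 7.18, 6.98, 6.68 and 6.44 in KO, against 7.63, 7.16 and 7.35 in WT, with overlapping values (limma adjusted p = 0.117). A dimmer Stk11 probe set went the other way, at 38.3, 57.9, 28.5 and 5.9 deposited signal units in KO, against 3.4, 5.1 and 19.4 in WT, above background in 3 of 4 KO samples and 1 of 3 WT samples. The positions of both relative to the floxed exons were not determined, so they may not check the labels.

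None of the 6 tested transporter genes passed the test, in either direction (limma, Benjamini-Hochberg adjusted over 8077 genes, threshold 0.05), although all 6 differences were above 0. Of all tested genes 5.44% passed, 2.48% as higher and 2.96% as lower in KO, and 47.6% had a difference above 0. At an unadjusted p under 0.05 there was 1 of the 6, Slc7a6, against 25.3% of all genes. It was also the 1 transporter whose groups did not overlap, as they did not in 24.1% of all genes. The median log2 difference of the 6, KO minus WT, was 0.23, and that of all tested genes was -0.02. Slc7a6, Slc7a5 and Slc1a5 were at 0.54, 0.42 and 0.33, and Slc3a2, Slc38a2 and Slc38a1 at 0.12, 0.03 and 0.02. In RNA of a whole sorted population, a change in the share of cells that use a gene and a change of RNA per cell cannot be told apart. With the signals as deposited, in which the median gene is at 0.34, Slc7a6, Slc7a5 and Slc1a5 passed as higher, where 17% of all genes did. With the arrays centred on their medians Slc7a6 passed alone, where 6.75% did.

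**Figure D1:**
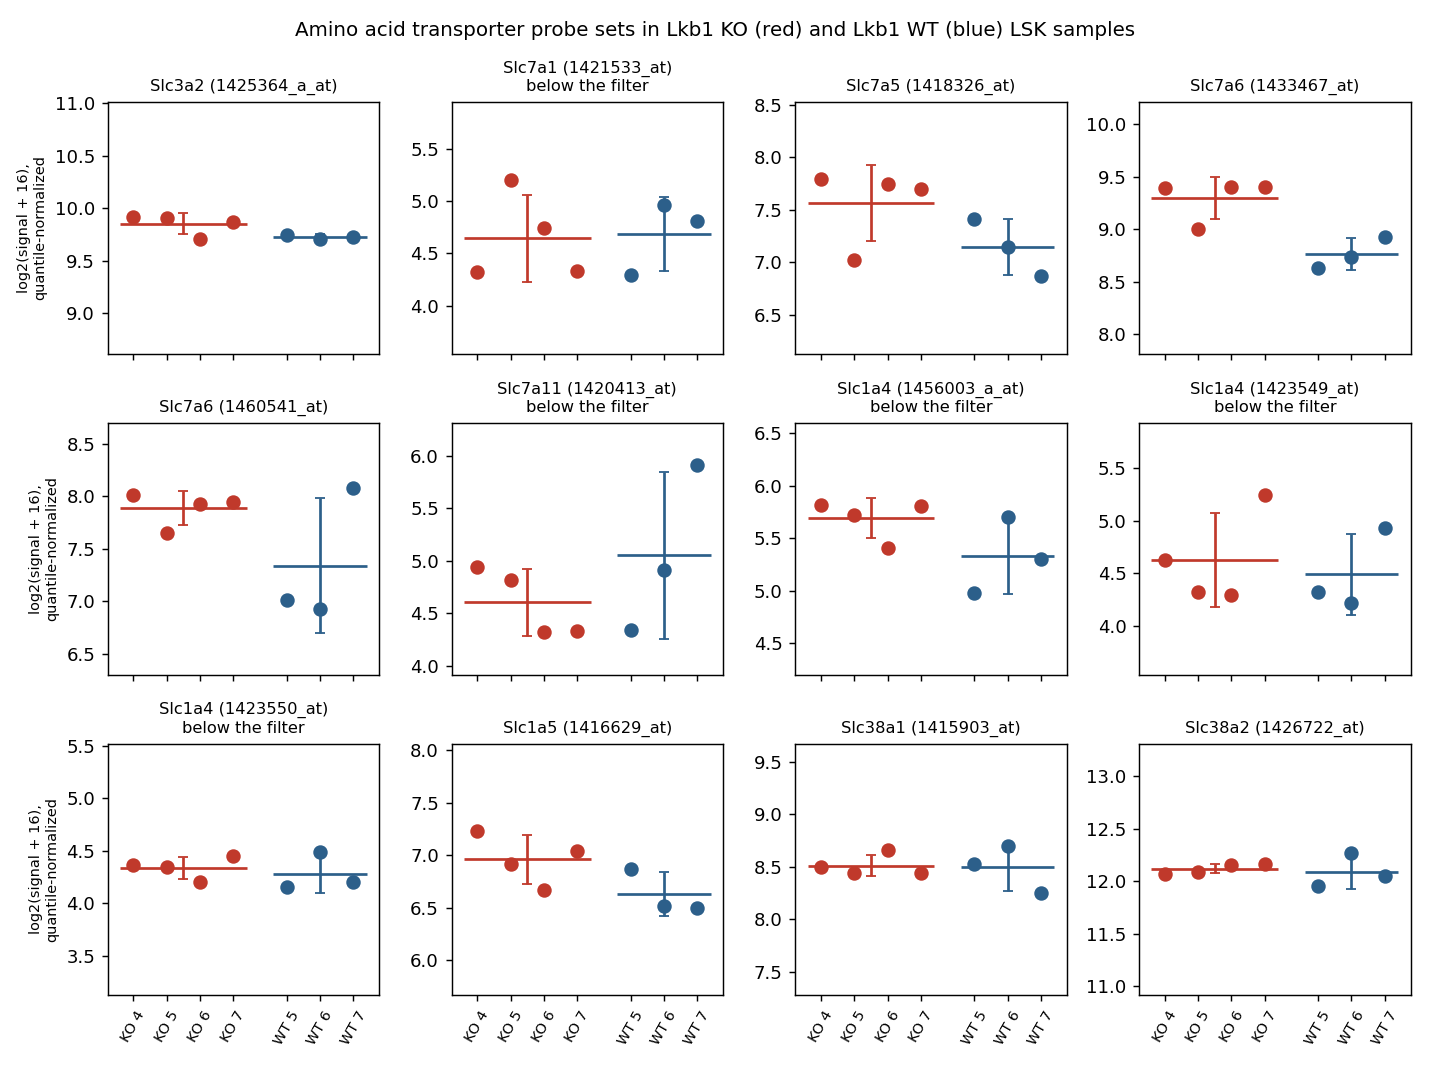
Each panel is 1 probe set of the 9 transporter genes, with log2(signal + 16) after quantile normalization for each sample, KO in red and WT in blue; lines are group means, error bars 1 SD, and all panels span the same height in log2 units. In the brighter Slc7a6 probe set the KO samples, at 9.0 to 9.40, lie above the WT samples, at 8.63 to 8.93.

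The CD98 heavy chain gene Slc3a2, the shared partner of Slc7a5, Slc7a6 and Slc7a11, was bright and nearly level across samples. It measured 9.92, 9.91, 9.71 and 9.87 in KO 4 to KO 7, against 9.75, 9.71 and 9.73 in WT 5 to WT 7. KO 6 lay among the WT samples and the other KO samples above them, so the groups overlapped. The log2 difference was 0.12 ± 0.09 (SE), with a 95% interval of -0.08 to 0.33, or a fold of 0.943 to 1.26 (limma adjusted p = 0.43). Its pooled SD within groups, 0.0785 log2 units, was at percentile 9.06 of tested genes. On the deposited scale the probe set read 1049 ± 145 (SD, n = 4) on KO arrays, against 705.3 ± 153 (SD, n = 3) on WT arrays, which includes the difference in brightness of the arrays.

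The LAT1 gene Slc7a5 varied more than most genes within a group. Its values were 7.79, 7.02, 7.75 and 7.70 in KO 4 to KO 7, against 7.41, 7.15 and 6.87 in WT 5 to WT 7. KO 4, KO 6 and KO 7 lay above every WT sample, while KO 5 lay between WT 6 and WT 7. The log2 difference of 0.42 ± 0.21 (SE, 95% interval -0.06 to 0.90, limma adjusted p = 0.253) did not pass, and the exact permutation p was 0.171. Without KO 5 the difference was 0.60 (limma adjusted p = 0.076). Its pooled SD of 0.33 was at percentile 89.1 of tested genes.

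Slc7a6 encodes y+LAT2, a CD98 light chain that exchanges cationic amino acids such as arginine for neutral ones, and it had the lowest p of the 9. Its brighter probe set read 834.3, 579.6, 707 and 700.7 deposited signal units in KO 4 to KO 7, against 383.4, 369.9 and 310.8 in WT 5 to WT 7. After normalization the values were 9.39, 9.0, 9.40 and 9.40 in KO, against 8.63, 8.74 and 8.93 in WT. Each KO sample was above each WT sample, with KO 5 and WT 7 nearest to each other; 11.4% of all tested genes showed such a separation with KO higher. The log2 difference was 0.54 ± 0.13 (SE), a fold of 1.45 with a 95% interval of 1.17 to 1.79. It missed the threshold at a limma adjusted p of 0.0562 and had an exact permutation p of 0.0571. Slc7a6 was 502nd of 8077 genes in order of p. Its call turned on the processing and on 1 sample: it passed without KO 5 (0.64, adjusted p = 0.0469) and in the scaling as deposited (0.95, adjusted p = 0.00409), and it was 0.36 (adjusted p = 0.736) with the 3' to 5' ratio of Actb, which itself separated the groups, as a covariate.

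The second probe set of Slc7a6, made against the same transcript sequence, gave a difference of the same size but with overlapping groups. It measured 8.01, 7.65, 7.93 and 7.94 in KO, against 7.01, 6.92 and 8.08 in WT. WT 5 and WT 6 lay well below the KO samples, and WT 7 was the highest of all 7. The difference was 0.55 ± 0.27 (SE from limma over 13575 probe sets, adjusted p = 0.26, where 4.08% passed; exact permutation p = 0.257). In both probe sets KO 5 was the lowest of the KO samples and WT 7 the highest of the WT samples.

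**Figure D2:**
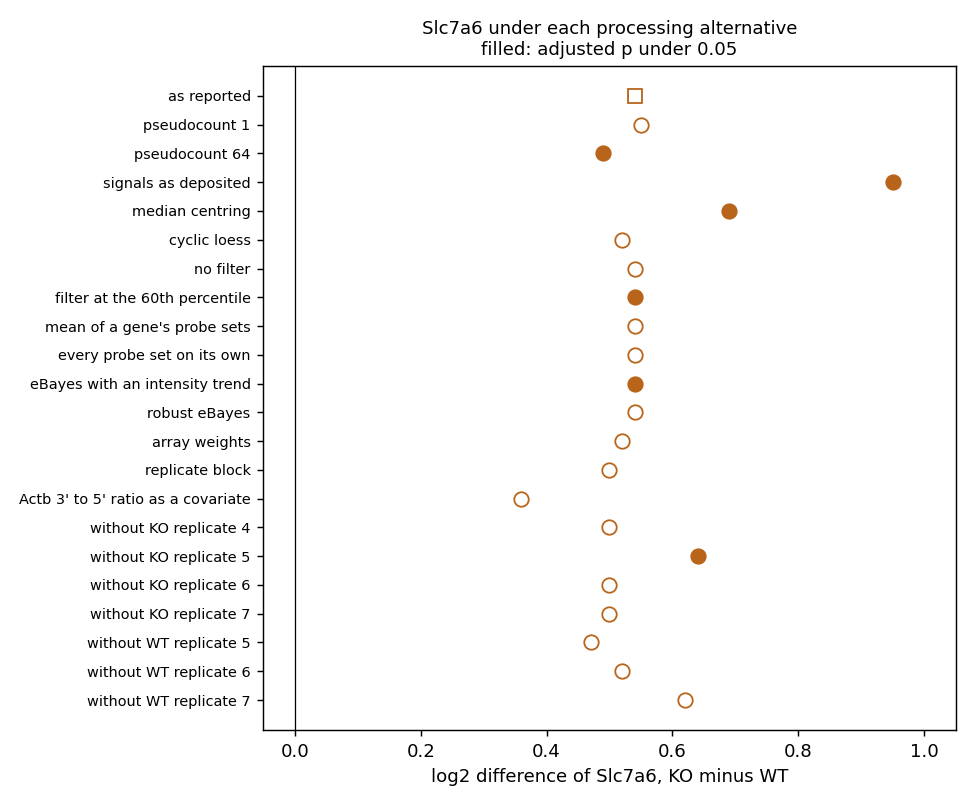
Log2 difference of Slc7a6, KO minus WT, as reported (square) and under each of 21 processing alternatives (circles), filled where the adjusted p was under 0.05. All values lie above 0, from 0.36 to 0.95, and 6 of the 21 pass.

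By the root mean square difference of centred log2 values over the 7 samples, the tested genes most like Slc7a6 were Gspt1, a translation termination factor (0.0674), the membrane protein gene Ms4a4c (0.08), the mitochondrial nuclease gene Mgme1 (0.0924), cytochrome c gene Cycs (0.0981) and the nuclear import gene Kpna3 (0.1). The other transporters were less like it. Slc7a5 was nearest at 0.256 and came 1221st of 8076 genes in that order, ahead of Slc3a2, the chain that y+LAT2 pairs with, at 1772nd. Slc1a5, Slc38a2 and Slc38a1 came 1902nd, 2325th and 3398th.

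Slc7a11 encodes xCT, the CD98 light chain that imports cystine, the raw material of glutathione, in exchange for glutamate. Its probe set was near background, with deposited signals of 17.6, 12.4, 4.2 and 4 in KO 4 to KO 7, against 4.2, 13.7 and 30.9 in WT 5 to WT 7. It exceeded the background level in 1 of 4 KO samples and 2 of 3 WT samples, and the groups overlapped fully (exact permutation p = 0.486), so no fold is given. The gene of the arginine and lysine carrier CAT-1, Slc7a1, was no brighter. Its deposited signals were 4.7, 21.5, 10.9 and 4 in KO, against 3.5, 14.6 and 9.1 in WT, above background in 1 sample of each group (exact permutation p = 0.914). At this brightness a difference was not detectable in either gene.

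Both SLC1 genes encode sodium-dependent exchangers of small neutral amino acids. Slc1a5 encodes ASCT2, a main route of glutamine uptake. It measured 7.23, 6.92, 6.67 and 7.04 in KO 4 to KO 7, against 6.87, 6.52 and 6.50 in WT 5 to WT 7. KO 6 lay below WT 5 and the other KO samples above all WT samples. The log2 difference was 0.33 ± 0.15 (SE, 95% interval -0.02 to 0.69, limma adjusted p = 0.22; exact permutation p = 0.114). In the scaling as deposited it was 0.64 (limma adjusted p = 0.0484).

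Slc1a4 encodes ASCT1, which carries alanine, serine, cysteine and threonine, and had 3 probe sets, none past the filter. The brightest lay at percentile 39.95 of all probe sets by mean, just under the filter at the 40th. It had deposited signals of 49.4, 39.5, 27.3 and 40.9 in KO, against 15.9, 34.3 and 17.4 in WT, above background in all 7 samples. Of the KO samples KO 6 lay below WT 6, and the log2 difference of 0.36 had an exact permutation p of 0.171. The second probe set exceeded background in 1 of 4 KO samples and no WT sample, and the dimmest in none of the 7.

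The SLC38 genes encode sodium-coupled importers of glutamine and other neutral amino acids, SNAT1 and SNAT2. They are next to each other on chromosome 15. Slc38a2, known to be induced when amino acids are scarce, was the transporter gene at the highest percentile of probe set brightness, 97.4. Its values were 12.07, 12.09, 12.15 and 12.16 in KO 4 to KO 7, against 11.95, 12.27 and 12.05 in WT 5 to WT 7. The KO samples lay within the range of the WT samples. The log2 difference was 0.03 ± 0.10 (SE), and its 95% interval covered folds of 0.868 to 1.196 (limma adjusted p = 0.89).

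Slc38a1 was likewise level, at 8.5, 8.44, 8.66 and 8.44 in KO, against 8.53, 8.70 and 8.25 in WT. All KO samples again lay within the WT range, and the 95% interval of the difference covered folds of 0.83 to 1.23 (limma adjusted p = 0.946). For both genes the sign depended on the processing: Slc38a1 was at -0.01 with cyclic loess and at -0.11 without WT 7, and Slc38a2 was at -0.04 without WT 5.

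Promoter windows of 250 bases before to 50 after the transcription start were read from RefSeq (GRCm38.p6) for 6 of the 9 genes. Slc7a5, Slc1a5 and Slc38a1 were not among them. Both strands were searched for TGATGNAA, the composite element that ATF4 binds with C/EBP proteins, for the E-box CACGTG bound by MYC, and for TGACNNNGC, the core of the element bound by NRF2. They match 3.97%, 7.15% and 12.4% of 32851 promoter windows. The composite element was in the windows of the 2 dim genes Slc7a11 and Slc1a4 and in none of Slc3a2, Slc7a1, Slc7a6 and Slc38a2. No window of the 6 genes held the E-box. The windows of Slc7a6, the gene of lowest p, and of Slc7a11 and Slc1a4 are shown, each 5′ to 3′ on the strand of the gene. Capitals mark TGATGNAA or its reverse complement in Slc7a11 and Slc1a4, and TGACNNNGC in Slc7a6. In the Slc7a6 window shown, that match begins 1 base before the transcription start. In a second Slc7a6 window, with another start, the same letters begin 68 bases before that start. TGACNNNGC was also in windows of Slc7a1 and Slc38a2. In Slc7a11 the first of 2 matches begins 66 bases before the start, and in Slc1a4 the match begins 4 bases before it.
Slc7a6 (chr8:106168604-106168903, plus strand): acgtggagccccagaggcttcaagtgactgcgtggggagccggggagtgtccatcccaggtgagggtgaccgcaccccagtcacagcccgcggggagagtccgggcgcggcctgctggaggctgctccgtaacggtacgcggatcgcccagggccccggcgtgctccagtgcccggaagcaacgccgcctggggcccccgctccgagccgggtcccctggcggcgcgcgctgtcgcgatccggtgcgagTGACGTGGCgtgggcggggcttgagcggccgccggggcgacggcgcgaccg
Slc7a11 (chr3:50443564-50443863, minus strand): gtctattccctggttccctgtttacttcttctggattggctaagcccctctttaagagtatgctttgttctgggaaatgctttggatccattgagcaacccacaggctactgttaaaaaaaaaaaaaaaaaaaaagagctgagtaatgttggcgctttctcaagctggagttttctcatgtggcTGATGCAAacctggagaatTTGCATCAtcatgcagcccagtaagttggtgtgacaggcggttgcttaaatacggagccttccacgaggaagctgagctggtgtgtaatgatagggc
Slc1a4 (chr11:20332664-20332963, minus strand): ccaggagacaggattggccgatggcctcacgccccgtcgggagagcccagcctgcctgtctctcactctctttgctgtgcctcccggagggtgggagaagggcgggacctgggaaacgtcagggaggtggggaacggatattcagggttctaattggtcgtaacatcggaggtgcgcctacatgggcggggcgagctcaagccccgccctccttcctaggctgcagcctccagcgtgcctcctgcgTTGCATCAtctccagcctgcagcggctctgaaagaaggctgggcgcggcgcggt
A match describes these letters alone, and a window without one says nothing of the factor.

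Of 27 other amino acid transporters, 8 were tested; 11 were below the filter and 8 had no probe set of their own symbol. Of the 8 tested, 2 had a difference above 0, where 47.6% of all genes did, and none rose. The cystinosin gene Ctns, the lysosomal cystine exporter, was at -0.61 ± 0.11 (SE, limma adjusted p = 0.0245). The 8 had a median of -0.12, or 0.20 with the signals as deposited. Ctns measured 5.52, 5.56, 5.23 and 5.45 in KO, against 6.01, 6.01 and 6.11 in WT, and passed in 2 of the 7 fits without 1 sample, those without KO 5 or KO 6. It is dim and was bright enough for the test only through its WT samples. Its call and the count and median of its list are therefore not read here. Slc7a7, the y+LAT1 relative of Slc7a6, was at -0.33 (limma adjusted p = 0.0805), with its groups not overlapping. That separation, with KO lower, was seen in 12.7% of all tested genes. The lysosomal arginine and lysine exporter gene Slc66a1 was at -0.19 and the LAT2 gene Slc7a8 at -0.13, and neither passed. In the scaling as deposited Slc7a7 was at -0.03, and Slc66a1 and Slc7a8 were above 0, at 0.15 and 0.16.

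**Figure D3:**
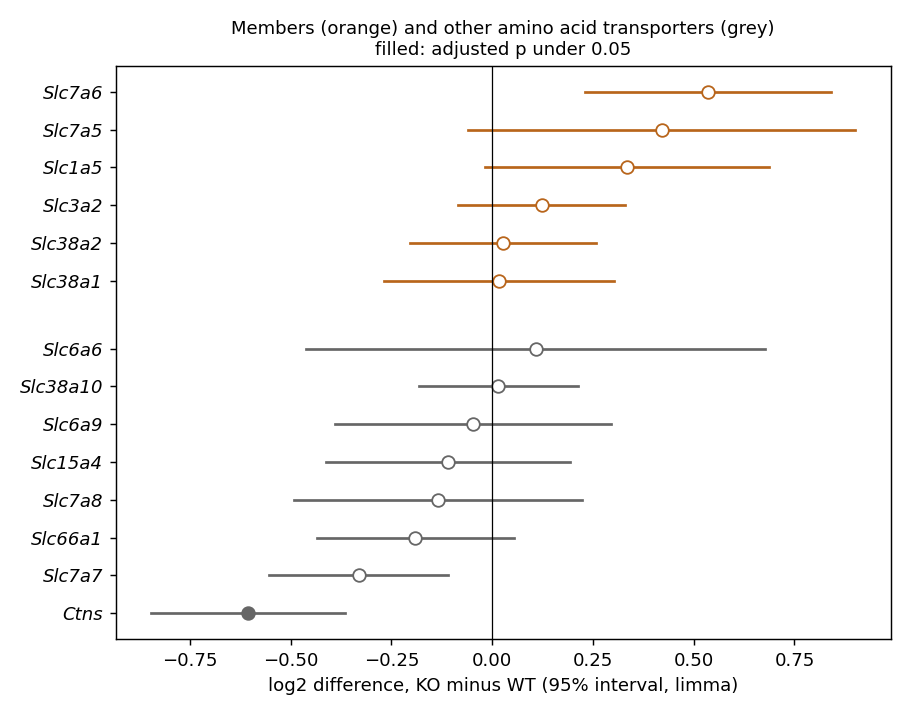
Log2 difference, KO minus WT, with its 95% interval from limma for the 6 tested transporter genes (orange) and 8 other amino acid transporter genes (grey), filled where the adjusted p was under 0.05. Only the interval of Slc7a6 among the orange genes lies wholly above 0. Ctns is the 1 filled point, and it passed the filter only through its WT samples.

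Of 19 tested genes of the amino acid response, the programme that ATF4 drives when amino acids run short, Trib3 fell and none rose, with a median of -0.08. Of all tested genes 2.96% fell. Trib3, a pseudokinase gene induced by that programme, measured 6.84, 7.15, 6.82 and 6.97 in KO, against 7.91, 8.21 and 7.89 in WT, and fell by 1.06 ± 0.12 (SE, limma adjusted p = 0.0107). The brighter Trib3 probe set, which gave these values, passed in each of the 7 fits without 1 sample. With samples blocked by replicate number it did not pass (limma adjusted p = 0.106), and with the Actb ratio as a covariate no gene did. The second Trib3 probe set was at -0.73 (limma over probe sets, adjusted p = 0.095). The stanniocalcin gene Stc2 was at 0.52, the phosphatase subunit gene Ppp1r15a at -0.46 and the serine hydroxymethyltransferase gene Shmt2 at 0.44. None of them passed (limma adjusted p = 0.0586 to 0.0611). Stc2 was bright enough for the test only through its KO samples, so its value and the median of its list are not read here. The second Stc2 probe set was at 0.07, and the 3 other Shmt2 probe sets at 0.41, -0.16 and -0.25.

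Among genes that use or make amino acids, none fell. Got2, the mitochondrial aspartate aminotransferase, rose by 0.56 ± 0.11 (SE, limma adjusted p = 0.0304), with a second probe set at 0.42, but passed in none of the 7 fits without 1 sample. Aldh4a1, of proline breakdown, was bright enough for the test only through its KO samples, so its call and the count and median of its list are not read here. It had deposited signals of 69.2, 56.5, 35.4 and 87.6 in KO, against 8.5, 11 and 20.8 in WT, above background in 4 of 4 KO samples and 1 of 3 WT samples. The spermidine synthase gene Srm was at 0.53 and the glutamine synthetase gene Glul at -0.40 (0.14 in a dimmer probe set), neither past the threshold (limma adjusted p = 0.0824 and 0.0852).

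Of 10 regulators of transporter genes and proteins, Mycn fell, where 2.96% of all genes did, and none rose, with a median of -0.08. The MYC family gene Mycn fell by 0.52 ± 0.12 (SE, limma adjusted p = 0.0456), but by 0.10 in the scaling as deposited, and its 2 dimmer probe sets were at -0.22 and 0.25; it passed in none of the 7 fits without 1 sample. The NRF2 gene Nfe2l2 was at -0.35 and Bach1, a repressor of NRF2 targets, at -0.39, and in the scaling as deposited they were at 0.08 and 0.04. The ubiquitin ligase gene Nedd4 was at 0.29 (limma adjusted p = 0.0891). None of these 3 passed.

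Of 14 tested genes of S phase and proliferation, 7 rose, where 2.48% of all genes did, and none fell. Their median was 0.39, and in 11 each KO sample was above each WT sample, as in 11.4% of all genes. The helicase genes Mcm5 and Mcm2 rose by 0.87 ± 0.13 and 0.52 ± 0.09 (SE), and the ribonucleotide reductase genes Rrm1 and Rrm2 by 0.65 ± 0.11 and 0.52 ± 0.10 (limma adjusted p = 0.0198 to 0.0283). The second Mcm2 probe set was at 0.69 and the 2 dimmer Rrm2 probe sets at 0.69 and 0.94, while the second Rrm1 probe set was at 0.24 with overlapping groups (limma over probe sets, adjusted p = 0.414). No sample could be left out with the count of 7 kept, which was 0 without KO 7, 1 without KO 4, KO 5, WT 5 or WT 7, 2 without WT 6 and 3 without KO 6. The count was also 0 with samples blocked by replicate number, and 0 with the Actb ratio as a covariate. Whether the shift in granulocyte markers, in array brightness or in the Actb ratio has a part in any of these values was not tested.

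**Figure D4:**
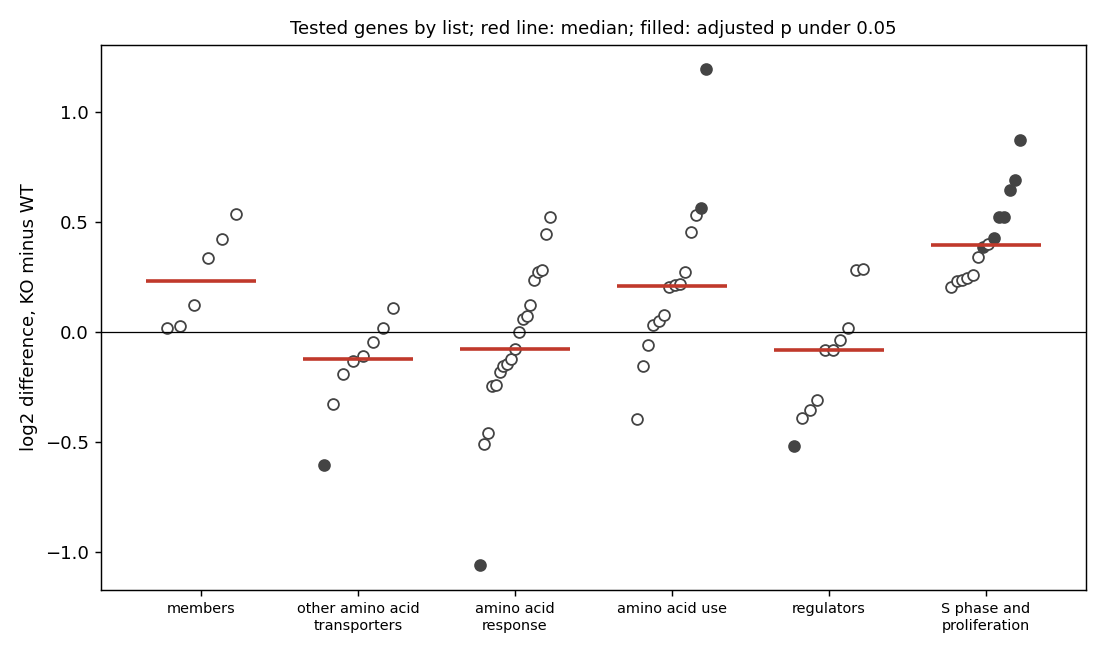
Log2 differences, KO minus WT, of the tested genes in 6 lists, 1 point a gene, filled where the adjusted p was under 0.05, with the list median in red. The transporters (left) lie between 0.02 and 0.54 with no filled point, and the S phase and proliferation genes (right) between 0.20 and 0.87 with 7 filled. Ctns, Stc2 and Aldh4a1 passed the filter only through the group where they were higher.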

How the data were processed

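The authors deposited linear signal intensities, 1 for each probe set of an array. MAS5 is named in the submitters' processing notes; no version, setting or scaling target was found in the labels. The 22690 probe sets included 64 controls, and 20380 others had 1 gene symbol in the platform annotation (20351 matched RefSeq GRCm38.p6). From these values, log2(intensity + 16) of non-control probe sets was quantile-normalized. Probe sets with a mean above the 40th percentile were kept, and the brightest stood for its gene (8077 genes). Fold changes on this scale understate those of dim genes. The background level was the 95th percentile of 27 controls for absent transcripts (189 readings). Genotypes were tested by limma (3.58.1, R 4.3.3; 5 residual degrees of freedom), and single values by two-sided exact permutation over 35 splits. The number of arrays limits the precision. On simulated data with the real means and spread (8077 genes), limma recovered 83 of 100 genes changed by 1 log2 unit and 28 of 100 changed by 0.5, with 7 false calls. No other gene was changed there and the noise was independent between genes. In the real data 25.3% of genes had an unadjusted limma p under 0.05, so these shares may not carry over.

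The genes and lists were chosen with earlier results of these data known. Named genes are Stk11, all 9 transporters, up to 4 genes of lowest p from each of 5 other lists, and the 5 genes most like the transporter of lowest p; markers are named for the check of cell types. Same-numbered KO and WT samples had deviations correlated at 0.03, 0.10 and 0.05. Those with different numbers were below 0, down to -0.07, except KO 4 with WT 5 at 0.07. These values do not settle whether samples were paired. The labels do not say that a number marks a pair, so the main fit took none. Alternatives covered the pseudocount, scaling, filter, probe set choice, prior variance, array weights, replicate block, Actb ratio and leaving out each sample.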

Additional observations from a re-analysis of the deposited data

Results flagged for a closer look

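Sample KO 5 stood apart from the other KO samples in 2 of the 36 values checked. For Slc7a5 it was at 7.02, against 7.70 to 7.79 in the other KO samples, and its gap to the nearest was 0.881 of the group's range, above Dixon's 95% critical value for 4 samples. For the brighter Slc7a6 probe set it was at 9.0, against 9.39 to 9.40, with a share of 0.974. Chance flags about 1 in 20 groups, and over all tested genes 5.3% had such a KO sample. The 2 of 36 lie near that share, so the count is not read as a result about these genes. In 0.52% of all tested genes KO 5 was flagged on the low side, an array and direction picked here after the values were seen. For Slc3a2, KO 6 was the lowest KO sample, at 9.71, and KO 5 was at 9.91. Without KO 5, Slc7a5 was at 0.60 (limma adjusted p = 0.076) and Slc7a6 at 0.64 (limma adjusted p = 0.0469).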

How the results depend on the processing

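As reported, 200 genes were higher and 239 lower, 0 transporters passed, and their median was 0.23. In the 5 other lists 9 genes were higher and 3 lower. Of the 9, Aldh4a1 passed the filter only through its KO samples, and of the 3, Ctns only through its WT samples. No transporter passed as lower under any of the 21 alternatives. With the signals as deposited, where the median gene shifted by 0.34, 1372 genes were higher and 43 lower (97.0% higher, against 45.6% as reported). There 3 of 7 tested transporters passed as higher, Slc7a6, Slc7a5 and Slc1a5, where 17% of all genes did; their median was 0.57, and 22 genes of the other lists were higher and 1 lower. Median centring gave 545 genes higher (76.7% of calls) and 1 transporter, Slc7a6, where 6.75% of all genes passed as higher. Slc7a6 was also the 1 transporter that passed with a pseudocount of 64 (326 genes higher and 374 lower), a filter at the 60th percentile (357 higher; 6 lower in the other lists; transporter median 0.12) and an intensity trend (444 and 442; 16 and 7 in the other lists). A pseudocount of 1 gave a transporter median of 0.39 and 5 higher in the other lists. The transporter median was 0.33 with cyclic loess and with every probe set on its own. These medians are not all over the 6 transporters tested as reported. There were 7 tested with a pseudocount of 1 and with cyclic loess, and 5 with the filter at the 60th percentile. Probe sets on their own numbered 7, and some fits without 1 sample also had 7 transporters. With a pseudocount of 1, Slc7a6, Slc7a5, Slc1a5 and Slc3a2 were at 0.55, 0.46, 0.39 and 0.13. Slc38a2 and Slc38a1 were at 0.03 and 0.02, as reported. Without a filter, 27 genes were higher and 47 lower, 1 and 1 in the other lists, with a transporter median of 0.12 over all 9. Averaging a gene's probe sets gave 158 lower. Adding the Actb 3' to 5' ratio to the fit left 0 genes higher and 0 lower (712 at an unadjusted p under 0.05), 0 and 0 in the other lists, and a transporter median of 0.02. The replicate block left 0 higher and 1 lower and 0 in the other lists, at 2 residual degrees of freedom; Slc7a6 was at 0.50 there (adjusted p = 0.126). Without each sample in turn, 8 to 76 genes were higher and 35 to 119 lower, 0 to 1 transporters passed, the transporter median was 0.17 to 0.36, and the other lists had 0 to 4 higher and 1 to 2 lower. The sign turned for Slc38a1 with cyclic loess (-0.01) and without 1 sample (-0.11 to 0.12 over the 7 fits), and for Slc38a2 with the Actb ratio (-0.07) and without 1 sample (-0.04 to 0.12). The causes were not tested. Signals near background limit Slc7a1 and Slc7a11. The brightest Slc1a4 probe set, above background in all 7 samples, lay just under the filter.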

Other observations

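Of the genes directly beside a transporter gene on its chromosome, 7 that are not transporters themselves were tested, and 2 passed, where 5.44% of all genes did. Wdr74, beside Slc3a2, rose by 0.68 ± 0.15 (SE, limma adjusted p = 0.0372), and Noct, beside Slc7a11, by 0.68 ± 0.11 (SE, limma adjusted p = 0.0213). Both were singled out after their values were seen.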
